A study of Mus musculus with 7 samples.

Results

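Genes of the primary cilium and of the centrosome were followed in mouse embryonic stem cells exposed to retinoic acid, a ligand of nuclear receptors made from vitamin A. They were taken by gene symbol: names beginning with Ift, Bbs or Cep and a digit, with Tctn, Dync2 or Nphp, and the genes Mks1 and Ofd1. This gave 47 of the 12071 symbols in the deposited table, 27 counted as cilium members and 20 (19 Cep genes and Ofd1) as centrosome members, each represented by its transcript with the highest mean. The cells were CCE, a feeder-free line kept on gelatin. The day 0 library came from cells in medium with leukemia inhibitory factor (LIF) that received the vehicle DMSO, and the libraries of days 1 to 6 from cells without LIF in 5 µM retinoic acid. Each day had 1 library of ribosomal-RNA-depleted total RNA, with no later untreated library, so the loss of LIF, the drug and culture time cannot be told apart. Nothing in the labels says that each day had its own culture.

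The primary cilium is a microtubule-based sensory organelle that grows from the mother centriole when a cell leaves the division cycle, and it is needed for Hedgehog signalling. Intraflagellar transport (IFT) trains carry cargo along it, IFT-B outward with kinesin-2 and IFT-A back with dynein-2. The BBSome moves membrane proteins in and out, and the transition zone at the base controls entry. The centrosome is the pair of centrioles with the surrounding pericentriolar material that nucleates microtubules; the centrioles duplicate once per cell cycle and the mother centriole becomes the base of the cilium.

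Over days 0 to 5 most members stayed near their starting level. The centrosome genes Cep170 and Cep350 rose by 3.56-fold and 3.19-fold from day 0 to day 5, Cep250 rose by 1.69-fold, and Cep192 and the BBSome gene Bbs4 fell by 1.94-fold and 1.73-fold. Of the 27 members above the expression filter, 3 rose and 2 fell along a straight line on day (limma, adjusted p under 0.05 over 7242 genes). Over all genes kept 52.5% were called, 25.7% rising and 26.8% falling, against 18.5% of the members kept. By class, 0 of 11 cilium members rose and 1 fell (1 at an unadjusted p under 0.05), while 3 of 16 centrosome members rose and 1 fell. Day 6 is given apart, because its values depended on transcript length.

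Promoter sequence was set beside these courses because cilium genes are known targets of RFX transcription factors, which bind the X-box. The RefSeq promoter table (build GRCm38.p6) matched 37 of the 47 members with 45 promoters, and the 250 bases before each start were searched on both strands. The X-box form GTTNCCNNGGNAAC was found in Mks1 and Bbs7, that is 2 of 45 member promoters (4.44%), and in 0.374% of the 32851 promoters of the table. The form with a 1-base spacer, GTTNCCNGGNAAC, was found in Ift57 and Tctn3, again 2 of 45 member promoters, and in 0.228% of all promoters. The shorter core GTTGCC, which can lie inside both forms, was in 9 of 45 member promoters (20%), from 7 genes, and in 10.4% of all promoters. The retinoic acid response element form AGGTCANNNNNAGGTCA was in 0 of 45 member promoters and 3 of 32851 promoters. The motifs were chosen with the promoters already seen, so these shares describe the promoters and are no test of enrichment. A match is a description of the letters and not of binding. The 4 matching promoters are printed because their genes held a full X-box form, with the match in capitals, 5′ to 3′ on the gene's strand, ending at the base before the start:
Mks1 (chr11:87852965-87853214, plus strand): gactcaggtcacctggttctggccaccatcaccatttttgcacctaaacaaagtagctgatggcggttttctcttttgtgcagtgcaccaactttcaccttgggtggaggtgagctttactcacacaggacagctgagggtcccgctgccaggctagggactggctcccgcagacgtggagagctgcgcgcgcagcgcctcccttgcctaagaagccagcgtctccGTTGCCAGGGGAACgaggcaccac
Bbs7 (chr3:36613390-36613639, minus strand): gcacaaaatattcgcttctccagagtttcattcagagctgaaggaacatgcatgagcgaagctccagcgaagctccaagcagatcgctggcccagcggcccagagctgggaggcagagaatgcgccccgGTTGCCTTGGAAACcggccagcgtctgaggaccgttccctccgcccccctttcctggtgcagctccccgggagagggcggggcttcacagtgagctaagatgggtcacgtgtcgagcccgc
Ift57 (chr16:49699044-49699293, plus strand): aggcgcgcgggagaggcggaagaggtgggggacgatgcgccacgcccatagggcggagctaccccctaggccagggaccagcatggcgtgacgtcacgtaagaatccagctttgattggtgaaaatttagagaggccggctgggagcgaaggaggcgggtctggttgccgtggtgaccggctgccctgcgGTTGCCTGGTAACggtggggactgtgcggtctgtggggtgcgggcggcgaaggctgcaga
Tctn3 (chr19:40612232-40612481, minus strand): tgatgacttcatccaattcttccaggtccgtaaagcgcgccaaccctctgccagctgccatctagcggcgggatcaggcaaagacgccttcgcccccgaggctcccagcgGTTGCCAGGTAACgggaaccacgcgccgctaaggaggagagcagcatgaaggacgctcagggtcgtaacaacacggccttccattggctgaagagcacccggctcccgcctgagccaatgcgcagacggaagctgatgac
Between the match and the start lay 10 bases in Mks1, 107 in Bbs7, 47 in Ift57 and 127 in Tctn3. From day 0 to day 5 the log2 difference was −1.12 in Mks1, 0.64 in Bbs7, 0.47 in Ift57 and −0.13 in Tctn3. Bbs7 (counting interval 0.25 to 1.04) and Ift57 (0.13 to 0.81) stood higher on day 5 and Mks1 (−1.38 to −0.86) lower, while the interval of Tctn3 (−0.52 to 0.27) included zero. These intervals cover counting error only, and the median of all symbols on day 5 was 0.13 above day 0. All 4 genes were below the expression filter. In the limma fit with no filter Mks1 was called (adjusted p = 0.0403), and Bbs7 (0.282), Ift57 (0.0999) and Tctn3 (0.364) were not.

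Levels can be compared between genes per length, as scaled reads per kb of transcript averaged over days 0 to 5. Among cilium members Ift20, a small IFT-B subunit also found at the Golgi, was highest at 368, followed by Ift52 at 252 and Ift74 at 215, both of the IFT-B core. Bbs10, a chaperonin-like gene needed to assemble the BBSome, was lowest at 34.5. Among centrosome members Cep57 (334) and Cep192 (328) were highest and Cep290 (51.0), a transition zone protein, was lowest. Over the 6 libraries Ift20 lay between 284 and 435, Ift52 between 193 and 296, Cep57 between 297 and 361 and Cep192 between 229 and 445. Both pairs overlapped over the days, but Ift20 was above Ift52 in 6 of 6 libraries, and Cep57 above Cep192 in 3 of 6. Recovered reads of a member ran from 39 (Bbs10 on day 3) to 2167 (Cep192 on day 4).

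**Figure D1:**
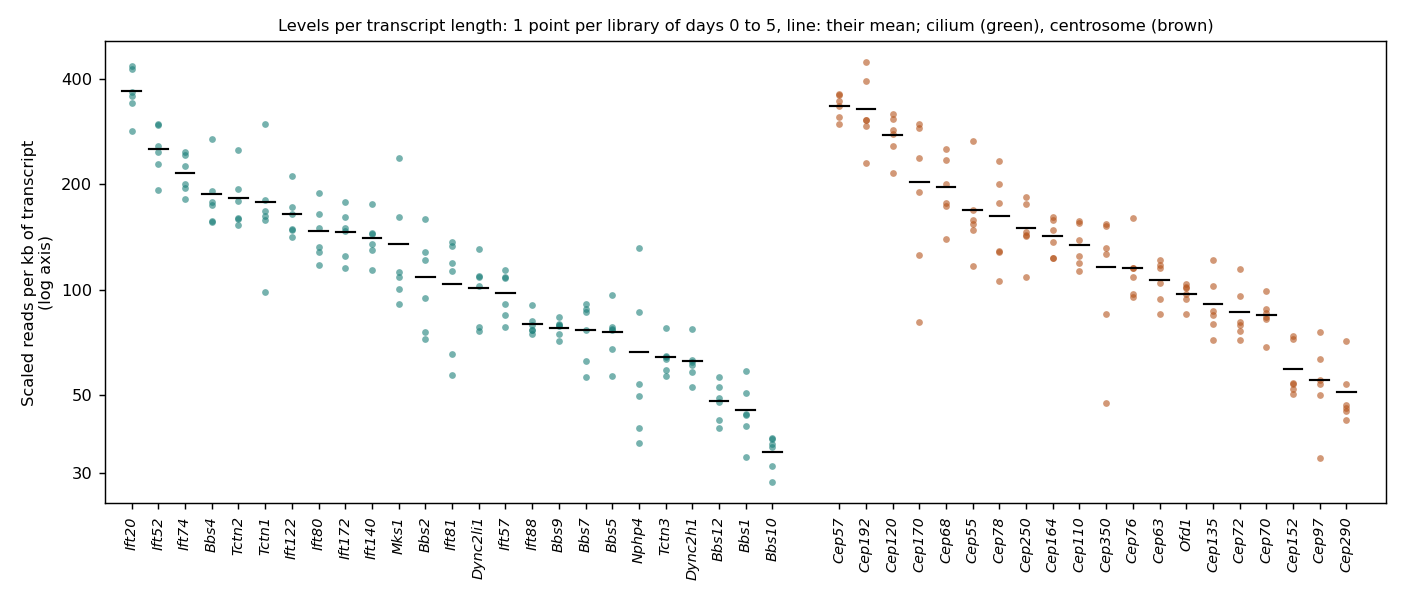
Scaled reads per kb of transcript (log axis) for 45 of the 47 members, ordered by mean within each class, with 1 point for each library of days 0 to 5 and a line at their mean. Ift20 and Cep57 lead their classes at 368 and 334, and Bbs10 and Cep290 stand last at 34.5 and 51.0.

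Few of the IFT genes taken by name moved. Those outside the name rule, among them the IFT-A gene Ttc21b, which rose, are given below. Of 8 IFT-B genes 5 were above the filter, and 0 of these rose or fell (0 at an unadjusted p under 0.05), with slopes from −0.083 to 0.085 log2 units per day. Ift88, a subunit whose loss blocks cilium formation, stood at 7.94, 7.86, 7.89, 7.90, 8.13 and 7.98 on the log2 scale on days 0 to 5. Ift20 stood at 8.10, 8.46, 8.21, 7.84, 8.17 and 8.43, with its lowest value on day 3 and a slope of 0.012 ± 0.057 (SE). It passed the filter through its day 6 value (9.84), and a filter on the mean of days 0 to 5 did not keep it. Ift52 stood at 9.10, 8.69, 8.93, 9.04, 9.31 and 9.30, lowest on day 1. Day 5 was 1.25-fold above day 0 in Ift20 and 1.15-fold in Ift52, the latter with a counting interval that reached below day 0 (−0.0084 to 0.41 on the log2 scale).

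Ift81, which with Ift74 forms the tubulin-binding part of IFT-B, was below the filter. It stood at 7.40, 7.60, 8.39, 8.47, 8.62 and 8.67, each day above the one before. Only the step from day 1 to day 2 (0.78, counting interval 0.44 to 1.13) had an interval that excluded zero. Day 5 was 2.40-fold above day 0, or 1.27 log2 units (95% counting interval 0.92 to 1.62, from 88 and 340 reads). In the fit with no filter it rose by 0.27 ± 0.058 per day (limma adjusted p = 0.0109 over 12071 genes). That fit called 48% of all genes, 25.9% rising and 22.1% falling, and 7 of the 47 members, 4 rising and 3 falling. Its partner gene Ift74 ran from 8.59 (day 0) through its highest value of 9.05 (day 2) to 8.74 (day 5) and had a slope of 0.044 ± 0.047 (limma adjusted p = 0.449). The difference between the slopes of Ift81 and Ift74 was not tested.

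Both IFT-A genes taken by name and the dynein-2 heavy chain gene were flat or peaked on day 2. Ift122 had a slope of 0.030 ± 0.053 and Ift140 one of −0.024 ± 0.052, and each had its highest value on day 2 (9.75 in Ift122). Dync2h1, the motor subunit that drives return transport, stood at 9.53, 9.77, 10.09, 9.67, 9.79 and 9.75, also highest on day 2. Its light intermediate chain gene Dync2li1, below the filter, had 6.67 on day 0 against 7.45 on day 5 (log2 difference 0.78, counting interval 0.31 to 1.26, from 53 and 146 reads). Its slope in the fit with no filter was 0.15 ± 0.055 (limma adjusted p = 0.0637).

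Of the 6 BBSome genes taken by name, 5 stood below day 0 on day 5, and Bbs7 stood above it, while 54.2% of all symbols stood above. Ttc8, on the list of BBSome partners outside the name rule, also stood higher on day 5 (8.21) than on day 0 (7.60). Its slope was 0.13 ± 0.068 (limma adjusted p = 0.168 with no filter), and it was named after its values were seen. The difference of Bbs9 (−0.10) had a counting interval that included zero (−0.41 to 0.21). Bbs4, the subunit that also binds pericentriolar satellites, stood at 9.40, 8.91, 8.81, 8.78, 8.62 and 8.61, each day below the one before. Its step on day 1 was −0.49 (counting interval −0.72 to −0.26), and the intervals of the later steps to day 5 included zero. Bbs4 fell by 0.14 ± 0.042 log2 units per day (limma adjusted p = 0.0326), and day 5 was lower than day 0 by 1.73-fold (counting interval of the log2 difference −1.01 to −0.57). After a correction for transcript length the slope was −0.13 with an adjusted p of 0.0509, just past the threshold. The call was also lost without day 0 (0.202), day 3 (0.0603), day 4 (0.105) or day 5 (0.0614). Falling calls among all genes kept numbered 1281, 1728, 1240 and 1704 in these fits, against 1943. Bbs2, a core subunit below the filter, stood at 8.88, 8.49, 8.57, 7.81, 7.75 and 8.13, with the largest step from day 2 to day 3 (−0.76), and its slope with no filter was −0.19 ± 0.068 (limma adjusted p = 0.0543). Bbs9 stayed within 0.22 log2 units across the 6 libraries, the smallest range of the 47 members, and its pair of listed transcripts differed by at most 0.030. The chaperonin-like genes Bbs10 and Bbs12 had 39 to 115 reads on these days. On day 5 they stood 0.086 and 0.095 above day 0, with counting intervals that reached below it (−0.43 to 0.61 and −0.35 to 0.55).

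Transition zone genes included the members with the largest early movements. Mks1, a Meckel syndrome gene of the transition zone core, stood at 9.14, 8.59, 8.07, 7.76, 7.91 and 8.02, lowest on day 3 and below day 0 in each later library. Day 5 was 2.18-fold lower than day 0 (log2 difference −1.12, counting interval −1.38 to −0.86, from 294 and 217 reads). It was below the filter, and in the fit with no filter it fell by 0.23 ± 0.073 per day (limma adjusted p = 0.0403). Nphp4, a nephronophthisis gene of the transition zone, stood at 8.77, 9.38, 8.09, 7.53, 7.67 and 7.97. Its step from day 1 to day 2 was −1.29, and its range of 1.85 log2 units was close to that of Cep170 (1.87), the widest of the 47. The slope of Nphp4 with no filter was −0.28 ± 0.107 (limma adjusted p = 0.0715); its highest value was on day 1 and its lowest on day 3.

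Among the tectonic genes, which encode membrane and secreted parts of the transition zone, Tctn1 stood higher on day 1 and Tctn2 lower. Tctn1 stood at 7.67, 9.26, 8.39, 8.35, 8.54 and 8.43, so day 1 was 3.01-fold above day 0 (log2 difference 1.59, counting interval 1.27 to 1.92, from 106 and 356 reads). Tctn1 overlaps Hvcn1, a proton channel gene on the opposite strand, whose own values were 9.17, 10.97, 9.99, 9.01, 8.84 and 8.78. No source used here gives the strand setting of the counting, so reads of the overlapping genes cannot be told apart, and the part of Hvcn1 in the day 1 value of Tctn1 was not tested. Tctn2 stood at 9.38 on day 0 and 8.74 on day 1 (log2 difference −0.64, counting interval −0.88 to −0.40). Tctn3 stood at 7.47 and 7.74 on those days, a difference of 0.27 with a counting interval that reached below day 0 (−0.13 to 0.68).

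A 2-fold gain on day 1 was reached by 2 of 47 members, Tctn1 among them, against 9.15% of all symbols, and 0 members reached a 2-fold loss, against 4.02%. In either direction this was 4.26% of the members and 13.2% of all symbols. No replicate stands behind these single-day differences.

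**Figure D2:**
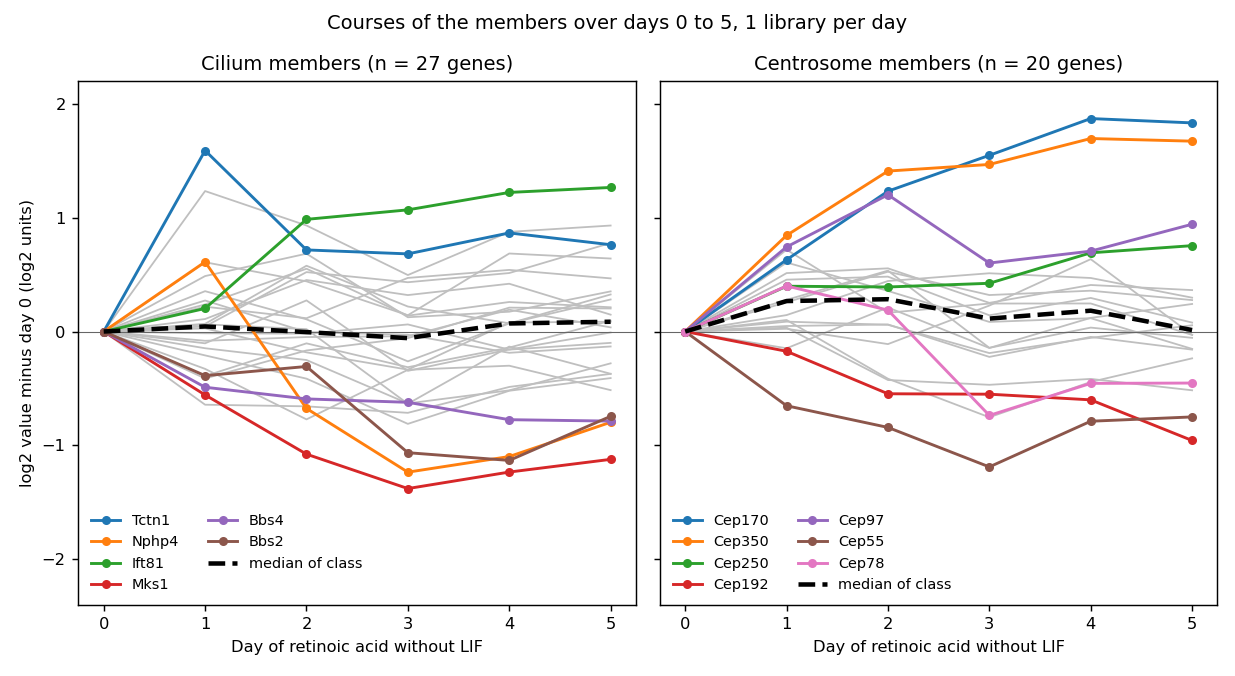
Log2 value minus day 0 for each day of retinoic acid without LIF (days 0 to 5, 1 library per day), cilium members on the left and centrosome members on the right; named genes are in colour, the others in grey, and the dashed line is the class median. Cep170 and Cep350 end 1.83 and 1.67 above day 0, Tctn1 stands 1.59 above it on day 1, and both medians stay between −0.058 and 0.28.

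Of the 4 mother centriole genes, Cep170 and Cep350 rose and the other two were not called. Cep170, which encodes a protein of the subdistal appendages that anchor microtubules (NM_001099637, chromosome 1, 178663783 to 178737255 in mm9, minus strand), stood at 9.14, 9.77, 10.37, 10.68, 11.01 and 10.97. It rose by 0.38 ± 0.055 log2 units per day (limma adjusted p = 0.00343), and day 5 was 3.56-fold above day 0 (counting interval of the log2 difference 1.65 to 2.02). Each library from day 1 to day 4 stood above the one before, and the call held without each of the 6 libraries in turn (adjusted p from 0.00424 to 0.0201).

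Cep350, a large centriole and microtubule-binding protein gene (NM_001039184, chromosome 1, 157692095 to 157820385, minus strand), stood at 9.31, 10.15, 10.72, 10.78, 11.00 and 10.98. It rose by 0.31 ± 0.067 per day (limma adjusted p = 0.0101), and 0.84 of the 1.67 log2 units gained by day 5 were present on day 1. Its call also held without each library in turn (adjusted p from 0.00751 to 0.0449). Both transcripts are long, 6950 nt for Cep170 and 13343 nt for Cep350, and across all symbols the slope and transcript length had a Spearman rho of 0.21, a description across genes that are not independent. After a correction for length the slopes of Cep170 and Cep350 were 0.30 (limma adjusted p = 0.00376) and 0.23 (adjusted p = 0.0103), so both calls held. That corrected fit called 52% of all genes, 25.5% rising and 26.4% falling.

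The other mother centriole genes stayed closer to day 0. Cep164, a distal appendage gene that the cilium needs to dock, stood at 9.56, 9.41, 9.77, 9.41, 9.68 and 9.80, with a slope of 0.047 ± 0.044 (limma adjusted p = 0.384). Cep110, the symbol the table uses for the centriolin gene, had values of 9.75, 10.21, 10.23, 9.90, 10.05 and 9.83, above day 0 in the middle of the course and near it at the end. Cep290, which joins the transition zone to the membrane, stood at 8.53, 8.56, 8.42, 8.76, 9.17 and 8.51, with day 4 apart from the rest. It overlaps 4930430F08Rik on the opposite strand, which stood between 6.99 and 7.68 on these days. Ofd1, a centriole and satellite gene, stood at 8.77, 8.86, 8.83, 8.58, 8.71 and 8.82, within 0.28 log2 units.

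Genes of the pericentriolar material and of the linker between centrioles split. Cep192, the scaffold that recruits mitotic kinases and pericentriolar material, stood at 11.82, 11.65, 11.27, 11.27, 11.22 and 10.86, highest on day 0 and lowest on day 5. It fell by 0.17 ± 0.034 log2 units per day (limma adjusted p = 0.00723), and by 0.25 after the correction for length (adjusted p = 0.00494). The fall of Cep192 was called without each library in turn (adjusted p from 0.00663 to 0.0451). Cep250, the linker protein gene also known as C-Nap1, stood at 9.77, 10.16, 10.16, 10.19, 10.46 and 10.52. It rose by 0.13 ± 0.036 per day (limma adjusted p = 0.0204), but the slope was 0.053 with an adjusted p of 0.194 after the correction for length. The call was lost without day 0 (0.122), day 4 (0.0755) or day 5 (0.0657). Rising calls among all genes kept numbered 1038, 1128 and 1612 without these days, against 1858. The linker gene Cep68 began at 10.14, was lowest on day 3 (9.39) and ended at 9.91. Cep57, a pericentriolar gene, stood at 9.77, 9.82, 9.83, 9.55, 9.72 and 9.61, lowest on day 3.

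Genes of centriole duplication and length stood above day 0 on day 1 in 7 of 7 members, with a median of 0.51, while 59.8% of all symbols did. The count was 6 of 7 once the median of all symbols (0.11) was taken off. The day 1 differences of Cep152 (0.034, counting interval −0.23 to 0.30) and Cep63 (0.14, −0.21 to 0.50) had intervals that included zero. On day 5, 3 of 7 members stood above day 0 and the median was −0.030. Cep135, a centriole cartwheel and wall gene, stood at 8.74, 9.34, 9.09, 8.82, 8.85 and 8.58, highest on day 1. Cep76, which limits repeated duplication, began at 8.60, reached 9.32 on day 1 and ended at 8.57. Cep97, which with the protein CP110 caps centrioles and restrains cilium growth, began at 8.03, reached 9.23 on day 2 and ended at 8.97. The day 5 difference of Cep97 was 0.94 (counting interval 0.66 to 1.23), and its slope was 0.11 ± 0.078 (limma adjusted p = 0.251).

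Cep152 and Cep78, also of this group, stood lower late in the course. The former, a scaffold for the duplication kinase Plk4 that was below the filter, stood at 8.71, 8.74, 8.28, 8.24, 8.29 and 8.19, a step down after day 1 and level from then on. Its slope with no filter was −0.11 ± 0.045 (limma adjusted p = 0.0779). Cep78 was highest on day 1 (9.22) and lowest on day 3 (8.08), and its step from day 2 to day 3 was −0.92. In the midbody gene Cep55, needed for the final cut of cell division, the values were 9.52, 8.87, 8.68, 8.33, 8.74 and 8.77. Day 0 was thus the highest library and day 3 the lowest, with a slope of −0.13 ± 0.072 (limma adjusted p = 0.169). Its 3 listed transcripts differed by 0.13 log2 units on day 0 and 0.25 on day 3, the widest spread of days 0 to 5.

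**Figure D3:**
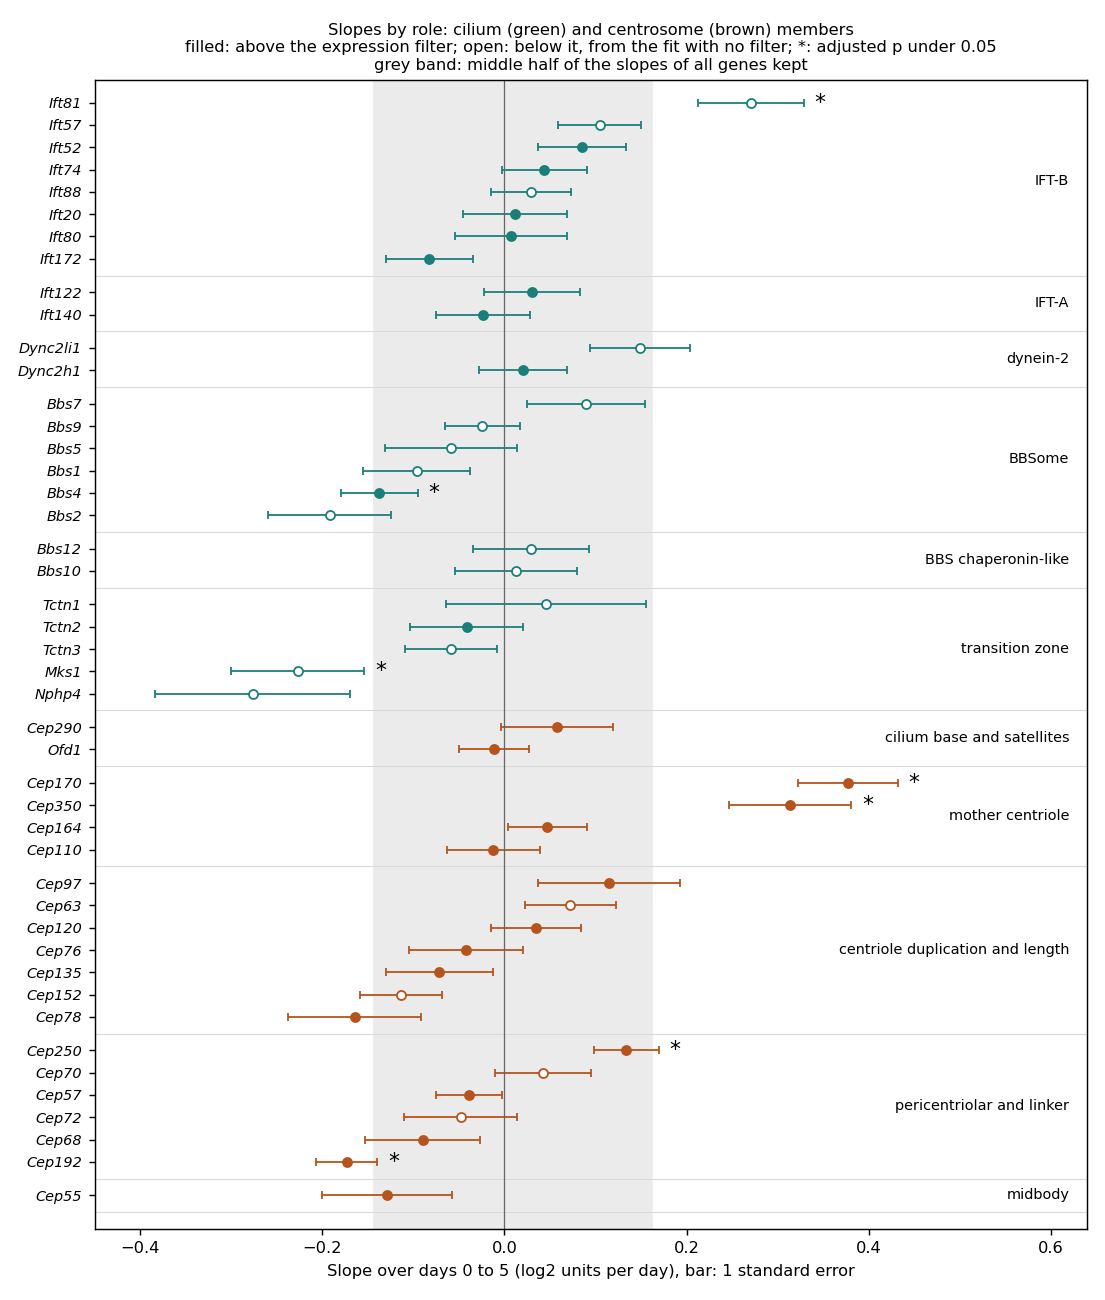
Slope over days 0 to 5 (log2 units per day) with its standard error for 45 of the 47 members, grouped by role, from limma; filled points were above the expression filter, open points come from the fit with no filter, stars mark adjusted p under 0.05, and the grey band runs from the lower to the upper quartile of all genes kept. Cep170 (0.38) and Cep350 (0.31) lie far to the right of the other filled points, and Cep192 (−0.17) and Bbs4 (−0.14) are the falling filled points with a star.

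Set side by side, the classes had almost the same middle. The median slope was 0.012 for the 11 cilium members and −0.012 for the 16 centrosome members kept, against −0.0012 for all 7242 genes, whose quartiles were −0.14 and 0.16. Slopes lay within 0.1 of zero in 10 of 11 cilium members and 9 of 16 centrosome members, and in 34.3% of all genes kept. With no filter, 20 of 27 cilium and 12 of 20 centrosome members did so, against 31.2% of 12071 genes. By day 5 a 2-fold gain over day 0 was reached by 3 of 47 members (Cep170, Cep350 and Ift81), against 25.9% of all symbols, and a 2-fold loss by 1 (Mks1), against 15.6%. Both together were 8.51% of the members and 41.5% of all symbols. When the day 6 library was added to the line, 0 of 27 members were called and 4 had an unadjusted p under 0.05 (limma), where 5.39% of all genes were called, 1.6% rising and 3.78% falling. The range over the 6 libraries reached 1 log2 unit in 6 of 27 cilium members and 5 of 20 centrosome members, and in 53.8% of all symbols.

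The classes differed on days 1 and 2 as medians, which was described and not tested. On day 1, 17 of 20 centrosome members stood above day 0 (median 0.27) and 15 of 27 cilium members did (median 0.045), while 59.8% of all symbols did. After the all-symbol median was taken off, the counts were 12 of 20 and 11 of 27. On day 2 the medians were 0.28 and −0.0050. Cilium members had their lowest value on day 0 in 10 genes and on day 3 in 9 of 27, and centrosome members on day 0 in 8 and on day 3 in 6 of 20. Centrosome transcripts were longer, with a median of 5078 nt against 2739 nt for cilium transcripts, and the part of length in this difference was not tested.

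Other genes of the same machinery outside the name rule were listed with earlier results of these data known. Of 9 kept IFT and motor genes, 3 rose and 2 fell: the dynein-2 gene Wdr34 (slope −0.32) fell, and the IFT-A gene Ttc21b (0.30) and the kinesin-2 gene Kif3a (0.17) rose. Of 3 kept BBSome partners, Rab8a (0.10), a membrane trafficking GTPase gene, rose and Mkks (−0.15), a chaperonin-like gene, fell. Of 12 kept transition zone and ciliopathy genes 3 rose and 3 fell, among them B9d1 (−0.29), whose protein works with Mks1, Tmem231 (−0.27), and the ciliary phosphatase gene Inpp5e (0.29). Of 8 kept genes of cilium assembly control 3 rose and 0 fell: Ttbk2 (0.24), the kinase gene that starts cilium growth, Mark4 (0.22) and the distal appendage gene Fbf1 (0.20). With no filter this list had 4 rising and 2 falling of 13 genes. Its largest slope was that of Rfx2, an RFX factor gene, which stood at 10.23, 8.37, 7.49, 6.70, 6.63 and 6.70 and fell by 0.68 ± 0.139 per day (limma adjusted p = 0.00977); it was below the filter on the mean, and was named after its values were seen.

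Of 20 kept genes of pericentriolar material and satellites, 4 rose and 2 fell, led by Akap9 (0.29) and Nedd1 (0.25) upward and the kinase gene Nek2 (−0.26) downward. Of 9 kept genes on the centriole duplication list, Sfi1 (0.39) rose. Haus6 (−0.16), a gene of the augmin complex of the spindle rather than of duplication itself, fell. The duplication kinase gene Plk4, named after its values were seen, had a slope of 0.028 ± 0.058. Of 9 kept Hedgehog pathway genes 3 rose and 1 fell, with the co-receptor gene Gas1 (1.43) and the effector gene Gli3 (0.45) among those that rose. With no filter, 8 of 14 Hedgehog genes rose and 1 fell, adding Boc (0.69), Shh (0.67), Ihh (1.07), Hhip (0.55) and Gpr161 (0.27), named after their values were seen. Shh, Ihh and Gas1 began from low values on day 0, at 3.94, 3.53 and 3.94. Among the genes not called, Gli2 stood lower on day 5 (9.98) than on day 0 (11.35), and Gli1, Sufu, Smo and Cdon stood higher. Gli1 had its lowest value on day 2 (7.52). With no filter the other lists had 4 rising and 3 falling of 18 IFT and motor genes, 1 and 2 of 8 BBSome partners, 5 and 4 of 24 transition zone genes, 1 and 1 of 10 duplication genes and 4 and 2 of 21 pericentriolar genes. These shares stand beside 25.7% rising and 26.8% falling among all genes kept, and 25.9% and 22.1% with no filter.

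Cell identity and division moved over the same days. Summed scaled reads of the 8 stem cell markers, among them Pou5f1, went from 79932 on day 0 to 2211 on day 5, and 4 of the 5 kept fell. Those of 8 extraembryonic endoderm markers went from 11686 on day 0 through 278942 on day 4 to 199415 on day 5. Of these, 6 of 7 kept genes rose. The matrix genes Col4a1 (16.27), Sparc (16.09) and Lamb1-1 (15.02) were the highest of the 8 on day 5. Sox17 and Sox7 were highest on day 3 (9.85 and 10.60). On day 5 they stood at 7.97 and 8.65, above day 0 (4.11 and 6.33). The sum of 7 fibroblast markers went from 915 to 34417, and 6 of 6 kept genes rose. The other fibroblast marker, Thy1, was below the filter and lower on day 5 (4.51) than on day 0 (7.76), with a slope of −0.40 ± 0.297 (limma adjusted p = 0.30 with no filter). Of 12 proliferation genes 10 fell and 0 rose, and their sum went from 53643 to 30137, the days over which Cep192 fell. Of 14 markers of multiciliated cells 3 were in the table (Dnaic2, Rsph1 and Ccdc40), at 7.81, 7.09 and 7.19 on day 0 and 6.58, 5.87 and 6.51 on day 5, and the other 11, Foxj1 among them, were not analysed here. Fewer cells of a type and less RNA per cell cannot be told apart in bulk RNA, and the part of these changes in the members' courses was not tested.

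On day 6 the members tended to stand lower the longer their transcript was. The day 6 minus day 5 difference had a Spearman rho with length of −0.63 over the 47 members and −0.70 over all 12071 symbols, as a description of 2 libraries. The 3 members under 1500 nt, Ift20, Dync2li1 and Bbs5, stood 1.41, 1.89 and 1.01 higher on day 6, where all symbols of that length had a median of 1.64. Cep350, Cep170 and Cep164 stood lower by log2 differences of −4.28, −4.23 and −4.02, with 38, 39 and 20 reads on day 6. A 2-fold gain from day 5 to day 6 was seen in 5 of 47 members, against 17.4% of all symbols, and a 2-fold loss in 23, against 51.1%. Both together were 59.6% of the members and 68.5% of all symbols.

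Several members stood away from genes of their length on day 6. Bbs4 (2510 nt) went from 8.61 on day 5 to 10.66, above each of its earlier values, that is 2.05 log2 units higher (counting interval 1.85 to 2.25), while symbols of 2500 to 3500 nt had a median of −1.21. Cep290 (8059 nt) was 0.83 higher (0.58 to 1.08), Cep110 (7656 nt) 0.57 lower on the log2 scale and Dync2h1 (14061 nt) 1.09 lower, where symbols of at least 7000 nt had a median of −3.13. Tctn1 (2064 nt) lay on the other side, at 8.43 on day 5 and 5.46 on day 6, with 16 reads, while symbols of 1500 to 2500 nt had a median of −0.090. Its overlapping neighbour Hvcn1 went from 8.78 to 5.36. Tctn2 (2662 nt, −2.38), Cep164 (5518 nt, −4.02) and Cep170 (6950 nt, −4.23) were among others below genes of their length. Symbols of 5000 to 7000 nt had a median of −2.80.

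**Figure D4:**
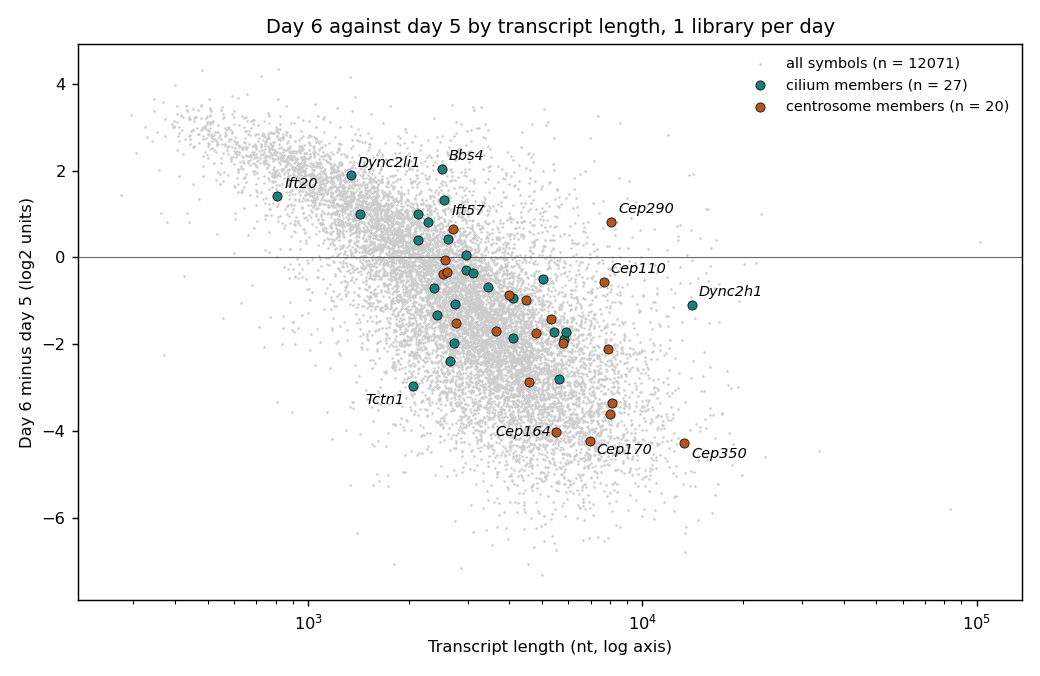
Day 6 minus day 5 (log2 units) against transcript length in nt (log axis) for all 12071 symbols in grey, cilium members in green and centrosome members in brown, 1 library per day. The members scatter along the falling cloud from Ift20 (1.41) to Cep350 (−4.28). Among others, Bbs4 (2.05), Cep290 (0.83), Cep110 and Dync2h1 lie above genes of their length, and Tctn1 (−2.98), Cep164 and Cep170 below.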

How the data were processed

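RNA sequencing libraries of days 0 to 6, 1 per day, were aligned with BWA 0.7.3 to mm9, per the submitters' processing notes. The counter, strand setting, annotation release and scaling were not given in the sources used here. Values in the deposited table are on the log2 scale, 1 per RefSeq transcript and day, not divided by length. They were whole multiples of 1 step per library, within 0.05 reads for 100% of values up to 1000 reads, and the lowest was taken as 1 read. Recovered reads ran from 7194325 (day 6) to 17923852 (day 4) over the 15296 listed transcripts, and a 95% exact binomial (Clopper-Pearson) interval of a difference covers counting error only. Transcript length is another deposited column, in nt.

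For each symbol the transcript with the highest mean over 7 libraries was used, and symbols with a mean above the 40th percentile (8.40) were kept, 7242 in all. Of the members 27 were kept and 20 were not; the latter have values from a fit with no filter. A line on day was fitted over days 0 to 5 with limma 3.58.1 (R 4.3.3), its prior variance following the mean, which leaves 4 residual degrees of freedom. P-values were adjusted by Benjamini-Hochberg over the whole fitted table and called at 0.05. With 1 library per day, p-values measure the scatter of days around a line, which may be technical. The length correction took a lowess curve (span 0.3) on log2 length off each library's deviations. The fit was tested on simulated data. Differences between days have no test, and at least 2-fold apart was counted. Promoters came from RefSeq; the 50 bases after the start were not used, and the motifs were chosen with the promoters already seen. Repeated fits used other libraries, filters, scalings and time scales.

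The members, classes and lists were chosen with earlier results of these data known. Values in every library were given for up to 6 called members per class and direction whose slope kept its sign without each library, for members with an inner day at least 1 log2 unit outside both ends (none met this), for the 2 highest per kb in each class and for 13 fixed examples. Others, such as Ift81, Tctn1 and Nphp4, were named after their values were seen. Per list, up to 3 called genes with the largest slopes were named. Values of 2 members and 1 list gene are not reported here; the counts include them.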

Additional observations from a re-analysis of the deposited data

How the results depend on the processing

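No paired analysis was possible because each day had 1 library and the labels give no replicate numbers. Calls were recomputed with other libraries, filters, scalings and time scales. With 7 libraries, day 6 included, 0 members were called in either class and either direction (limma, 4 of the 27 at an unadjusted p under 0.05), and the median slopes were −0.106 for cilium and −0.179 for centrosome members against −0.093 for all genes. In that fit the slopes of Bbs4 (0.107), Cep170 (−0.148), Cep250 (−0.269) and Cep350 (−0.210) changed sign, and day 6 is the library that depends on length. With no filter, 1 cilium member rose (Ift81) and 2 fell (Bbs4 and Mks1). With the filter at the 60th percentile 0 cilium members fell, where 1490 of 4828 genes did. Falling centrosome members numbered 2 with median-centred libraries, with the length correction and on the square root of day, against 1. Among all 7242 genes, 2348, 1915 and 1918 fell in these fits, against 1943. The length correction left 0 falling cilium members (Bbs4 had a slope of −0.128 against −0.138, adjusted p = 0.0509), and 0 of the 27 members kept at least 2-fold apart on day 1, against 1. Quantile normalization moved the cilium median slope to −0.043, where the median of all genes was −0.027. Leaving out each library in turn gave 0 to 1 rising and 0 to 1 falling cilium members, and 2 to 3 rising and 1 to 2 falling centrosome members. Rising cilium members numbered 1 without day 0 (Ift52), and falling ones 0 without day 0, day 3, day 4 or day 5. Calls moved across the whole table too. Rising genes ran from 1038 (without day 0) to 2005 (without day 2), against 1858. Falling genes ran from 1240 (without day 4) to 1960 (without day 2), against 1943. The cause of these shifts was not tested. The filter on the mean of days 0 to 5 was added after the data were seen and left the 4 counts of calls as they were. It did not keep Ift20, and the cilium median slope was 0.014. Cep290, Cep164 and Ofd1 act at the base of the cilium and could be placed in either class. Counting them as cilium members left the same 4 counts, with median slopes of 0.016 for cilium and −0.039 for centrosome members. Depth limits the low members: with 39 to 115 reads, Bbs10 and Bbs12 had intervals about as wide as a 2-fold change.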
